A study of Mus musculus with 6 samples.

Results

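The genes described here are those of the mouse major histocompatibility complex (MHC) and of the machinery that prepares and loads the peptides it presents, in interscapular brown adipose tissue (BAT). They were taken by symbol alone: every gene whose name begins with H2-, the prefix of the mouse MHC, together with *B2m*, *Tap1*, *Tap2*, *Tapbp*, *Psmb8*, *Psmb9*, *Psmb10*, *Nlrc5*, *Ciita* and *Cd74*. This gave 54 of 47729 genes. Of them, 39 belong to the class I arm, 14 to the class II arm, and 1, *H2-Ke6*, bears an MHC name because it lies in the complex but encodes a hydroxysteroid dehydrogenase. RNA-Seq had been done on BAT of wild-type male C57BL/6J mice, housed singly and fed from 6 to 10 weeks of age with either a 45% high-fat diet (HFD, 3 mice) or a standard rodent diet used as the low-fat control (LFD, 3 mice). No transgene or engineered deletion is reported for the mice, and the 3 of each diet had been picked to span the fat mass of their group. The comparison asks how presentation genes differ in BAT after 4 weeks of HFD feeding.

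MHC class I molecules are made by nearly all nucleated cells. Proteasomes cut cytosolic proteins into peptides, the TAP transporter carries the peptides into the endoplasmic reticulum, tapasin helps to load them onto a heavy chain paired with beta-2-microglobulin, and the complex is shown to CD8 T cells and natural killer (NK) cells. MHC class II molecules are made mainly by macrophages, dendritic cells and B cells. The invariant chain guides the alpha and beta chains to endosomes, where H2-DM exchanges its fragment for a peptide to be shown to CD4 T cells. NLRC5 switches on class I genes and CIITA switches on class II genes, acting through an enhanceosome that sits on neighbouring promoter elements.

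To show those elements, stretches of 190 bases that end just before the annotated gene start are given for 4 members of different classes: *H2-K1*, a classical class I gene, *H2-Q6* and *H2-Q7*, nonclassical class I genes with the lowest unadjusted p of the heavy chains, and *H2-Aa*, a class II gene. The sequences are RefSeq's, on GRCm38.p6, written 5′ to 3′ along the gene. *H2-K1* is at chr17:34000348-34000537 on the minus strand, *H2-Q6* at chr17:35424660-35424849 and *H2-Q7* at chr17:35438965-35439154 on the plus strand, and *H2-Aa* at chr17:34287824-34288013 on the minus strand. Capitals mark GGG and CCC with any 4 bases between them (the core of a kappa B-like site), TGACG (found in X2 boxes) and CCAAT (the Y box core), each read on both strands, so that CCAAT may appear as ATTGG, and matches that overlap run together.
H2-K1: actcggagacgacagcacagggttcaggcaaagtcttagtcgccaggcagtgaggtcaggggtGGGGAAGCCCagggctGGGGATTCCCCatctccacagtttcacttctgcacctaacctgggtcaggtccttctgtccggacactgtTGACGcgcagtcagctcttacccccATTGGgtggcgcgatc
H2-Q6: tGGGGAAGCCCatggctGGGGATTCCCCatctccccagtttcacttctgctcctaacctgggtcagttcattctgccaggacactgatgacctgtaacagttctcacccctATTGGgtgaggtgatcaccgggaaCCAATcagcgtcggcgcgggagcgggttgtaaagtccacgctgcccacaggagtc
H2-Q7: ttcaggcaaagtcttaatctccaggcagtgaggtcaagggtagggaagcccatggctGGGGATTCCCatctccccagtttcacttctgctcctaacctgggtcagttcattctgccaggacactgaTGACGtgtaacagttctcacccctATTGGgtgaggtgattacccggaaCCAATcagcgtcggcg
H2-Aa: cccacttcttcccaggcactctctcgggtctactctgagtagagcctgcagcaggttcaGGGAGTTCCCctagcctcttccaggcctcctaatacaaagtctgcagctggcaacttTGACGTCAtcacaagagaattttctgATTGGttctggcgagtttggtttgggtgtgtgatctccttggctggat

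The stretches of *H2-Q6* and *H2-Q7* were 97.3% identical over 150 aligned bases, and that of *H2-K1* was 86.7% identical to *H2-Q7* over 166. The distance from the TGACG match to the next CCAAT match was 25 bases in *H2-K1*, 24 in *H2-Q7* and 26 in *H2-Aa*, while *H2-Q6* held no TGACG. Among the promoters (windows of 300 bases around the start) of 16 tested class I arm members, CCAAT was present in 13 (81.2%) and TGACG in 9 (56.2%), against 41.1% and 23.0% of all 27025 promoters. The kappa B-like letters were in 5 of the 16 (31.2%; *H2-D1*, *H2-K1*, *H2-Q4*, *H2-Q6* and *H2-Q7*), against 13.4% of all. An interferon response core, GAAA and GAAA with any 2 bases between them, was in 3 (18.8%; *B2m*, *H2-T22* and *H2-T23*), against 3.99%. All 6 class II arm promoters matched held CCAAT, only that of *H2-Aa* held TGACG or the kappa B-like letters, and none held the interferon response core. These matches describe letters in a window and not binding. The promoters are also not independent of each other. The windows of *Psmb9* and *Tap1*, whose starts have 225 bases between them, overlap, so the same match can count for both. Those of *H2-K1*, *H2-Q6* and *H2-Q7* are close in sequence, as given above.

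The 6 libraries held 17156991 to 21603487 counts, and mitochondrially encoded genes took 8.50% to 22.7% of them in HFD-fed and 3.87% to 13.8% in LFD-fed mice. The tissue label was checked with fixed marker lists. *Ucp1*, the uncoupling protein that defines brown adipocytes, was at 796 to 4021 TPM (a level per unit of transcript length, scaled to the same total in every mouse) in HFD-fed mice but at 443, 11.03 and 76.0 TPM in LFD-fed mice 1 to 3. The full list of 12 brown adipocyte genes was less uniform: 9 had a positive log2 fold change, 3 of them at an unadjusted p under 0.05 by edgeR (7 when mice were blocked by replicate number), and only *Ucp1*, *Ppara* and *Prdm16* were free of overlap between diets. *Adipoq* (-1.19), *Plin1* (-0.78) and *Fabp4* (-0.35), which white adipocytes also express, had negative estimates with overlap, and the summed list overlapped, at 6134 to 13440 TPM in HFD-fed mice and 3584 to 13020 TPM in LFD-fed mice. Genes of skeletal muscle, a tissue that lies against interscapular BAT, summed to 7.35 to 195.6 TPM in HFD-fed mice and to 1907 to 13320 TPM in LFD-fed mice, with all 12 genes lower in every HFD-fed mouse and all 12 called lower by DESeq2 (none by edgeR). The libraries of the 2 diets therefore also differed in muscle RNA, and its part in the results below was not tested. A fit without these 12 muscle genes and the mitochondrially encoded genes gave median log2 fold changes of 0.82 (class I) and 0.16 (class II). With them the medians were 0.84 and 0.17. That fit left all other muscle RNA in place, so it cannot show the part of muscle RNA. In whole tissue, a change in the number of cells of a type and a change of RNA per cell cannot be told apart.

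Of the 54 members, 33 had enough counts to be tested: 23 of the class I arm, 9 of the class II arm and *H2-Ke6*. The other 21 had at most 14 counts in any mouse, and 9 of these, *H2-M10.1*, *H2-M10.3*, *H2-M10.4*, *H2-M10.5*, *H2-M10.6*, *H2-Q3*, *H2-Ea-ps*, *H2-Pa* and *H2-Pb*, had 0 counts in all 6. A count of 0 allows up to 3 counts per library. *H2-Ea-ps* is the E alpha chain gene, which C57BL/6 mice do not express. The second E beta gene, *H2-Eb2*, had the most counts of the untested members, with 8, 14 and 8 in HFD-fed mice and 0, 12 and 3 in LFD-fed mice, followed by *H2-Oa*, the alpha chain of the H2-DM inhibitor H2-O, with 7, 11 and 7 against 2, 6 and 5.

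No member passed the threshold of an adjusted p under 0.01 with an absolute log2 fold change above 1.5 by edgeR's quasi-likelihood test, as was true of all 17668 genes tested (0.0%), and none did with DESeq2, which called 2.06% of the genes it could adjust. The smallest adjusted p of a member was 0.400 with edgeR and 0.158 with DESeq2. At an unadjusted p under 0.05, 5 members were higher in HFD-fed mice (*H2-Q7*, *Psmb8*, *Psmb10*, *H2-Q6* and *Psmb9*) and 0 were lower, against 3.86% of all genes higher and 6.62% lower; DESeq2 gave 7 higher, against 3.49% of all genes it tested. When mice were blocked by replicate number the count was 10, against 8.75% of all genes, and the smallest adjusted p was 0.0968 (*H2-T24*), while 1.04% of all genes had an adjusted p under 0.05. The count of 5 depended on single mice. It was 0 without HFD-fed mouse 3 (against 2.17% of all genes), 0 without LFD-fed mouse 1 (6.01%) and 1 without LFD-fed mouse 3 (7.7%). It was 3 without HFD-fed mouse 2 (2.17%), 8 without HFD-fed mouse 1 (3.74%) and 8 without LFD-fed mouse 2 (2.68%). No difference of a member described below is therefore a call, and the members' values are given as measurements.

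The estimates were mostly positive in both arms, with a smaller median in the class II arm. The arms overlapped: estimates ran from -1.65 to 1.43 in the class I arm and from -0.17 to 0.51 in the class II arm. The most abundant class I arm genes, *B2m*, *H2-K1* and *H2-D1*, were at 0.23, 0.23 and 0.04. The median log2 fold change (HFD over LFD) was 0.84 over the 23 tested class I arm members, 22 of them positive, and 0.17 over the 9 class II arm members, 7 of them positive, against -0.05 over all tested genes, of which 45.6% were positive. On the log2(TPM + 1) scale the median of all genes was -0.18, that of the class I arm 0.45 and that of the class II arm -0.03, so the order of the 3 medians was the same on both scales. Leaving out 1 mouse at a time gave a class I median of 0.44 (without HFD-fed mouse 3) to 1.09 (without HFD-fed mouse 1), and a class II median of -0.13 (without LFD-fed mouse 1) to 0.59 (without LFD-fed mouse 2). The difference between the arms was not tested.

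**Figure D1:**
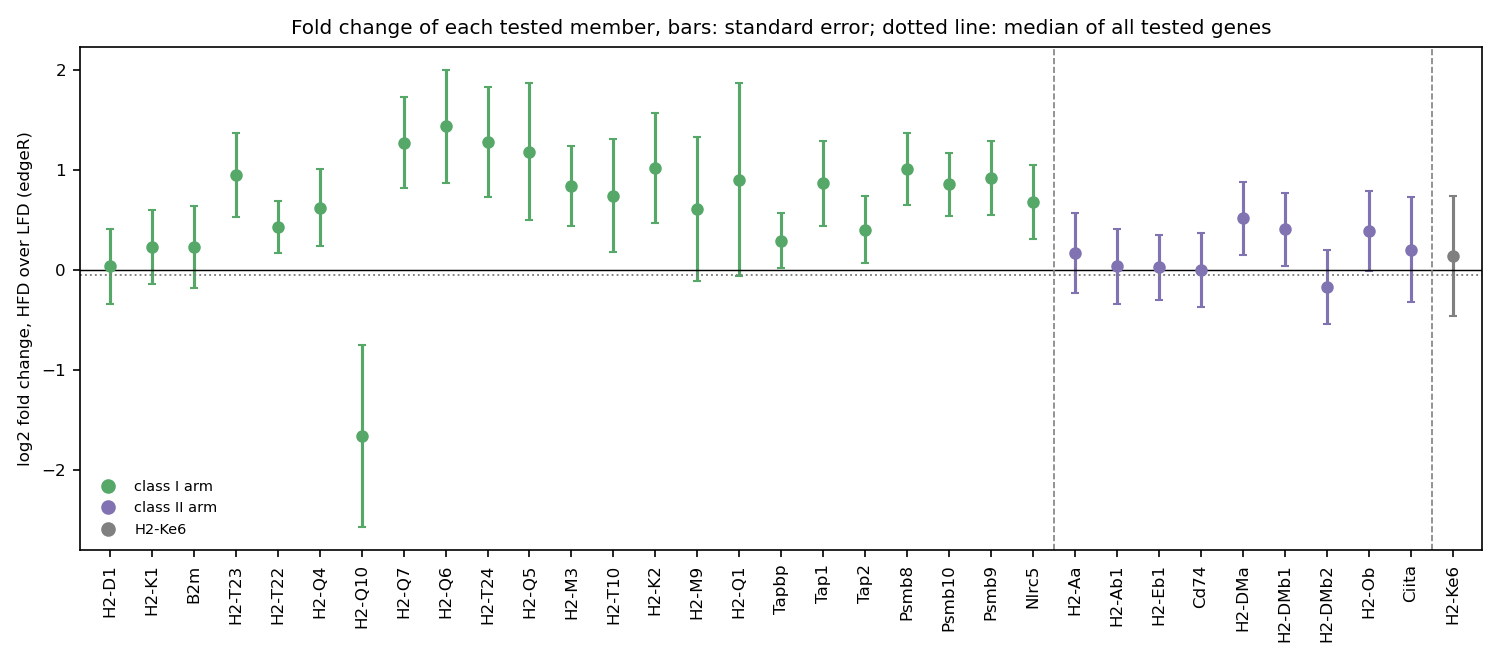
Log2 fold change of HFD-fed over LFD-fed mice (vertical axis, edgeR) for each of the 33 tested members (horizontal axis), coloured by arm, with bars of 1 standard error and a dotted line at the median of all tested genes (-0.05). The class I arm has a median of 0.84, with *H2-Q10* alone below 0 at -1.65, and the class II arm lies between -0.17 and 0.51.

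The classical heavy chains *H2-K1* (ENSMUSG00000061232) and *H2-D1* (ENSMUSG00000073411), which present peptides to CD8 T cells, and their light chain *B2m* (ENSMUSG00000060802) were by far the most abundant members. *B2m*, on chromosome 2 at 122147686 to 122153083, was at 1085, 1774 and 2472 TPM in HFD-fed mice and at 1363, 2242 and 1431 TPM in LFD-fed mice. *H2-D1* was at 459, 699 and 1042 TPM against 606.5, 1007 and 828 TPM, and *H2-K1* at 433, 687 and 1014 TPM against 500.0, 947 and 645 TPM. In TPM, HFD-fed mouse 3 was highest for all 3 genes and HFD-fed mouse 1 was lowest, and the diets overlapped. The log2 fold changes from the counts were 0.23 (SE 0.41) for *B2m*, 0.23 (SE 0.37) for *H2-K1* and 0.04 (SE 0.37) for *H2-D1*, with adjusted p of 0.918, 0.907 and 0.988 by edgeR, and those of *H2-K1* and *H2-D1* were -0.01 and -0.20 on the TPM scale. The ratio of *H2-K1* and *H2-D1* together to *B2m* stayed between 0.782 and 1.03 in the 6 mice.

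**Figure D2:**
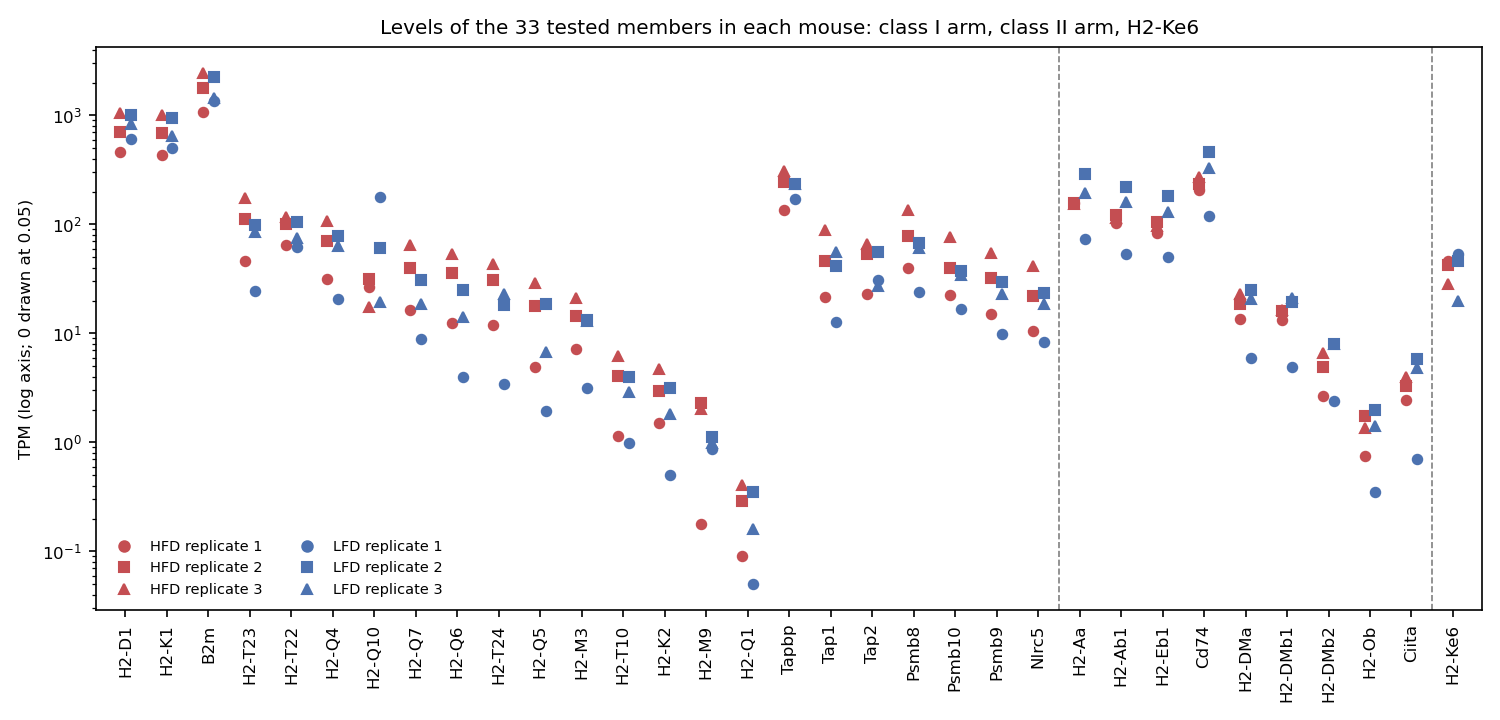
Level of each of the 33 tested members in each mouse, in TPM on a log axis (a level of 0 is drawn at 0.05), with HFD-fed mice in red, LFD-fed mice in blue and a marker shape for each replicate number; dashed lines part the class I arm, the class II arm and *H2-Ke6*. *B2m* reaches 2472 TPM and *H2-Q1* at most 0.41 TPM, and the diets overlap in TPM for every member.

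The nonclassical class I genes are less polymorphic relatives of *H2-K1* and *H2-D1* with lower and more restricted expression. Of their 13 tested members, 12 had a positive log2 fold change, with a median of 0.90. These counts include *H2-K2*, annotated as a transcribed pseudogene, and *H2-Q5* and *H2-T10*, annotated as polymorphic pseudogenes. In CPM (counts over library size, scaled by TMM factors), *H2-Q7*, which encodes the Qa-2 antigen, was at 41.3, 66.0 and 101 in HFD-fed and at 18.8, 44.7 and 22.75 in LFD-fed mice. Only LFD-fed mouse 2 reached the lowest HFD-fed mouse. The log2 fold change was 1.27 (SE 0.45), with an unadjusted p of 0.0268 and an adjusted p of 0.400 by edgeR. Its near-identical neighbour *H2-Q6*, also a Qa-2 gene, was at 27.2, 48.3 and 68.8 CPM against 7.60, 30.8 and 15.0 CPM, with the same overlap. The log2 fold change of *H2-Q6* was 1.43 (SE 0.56), with an unadjusted p of 0.0398 and an adjusted p of 0.449 by edgeR. Reads shared by such copies were split by the authors' RSEM estimates, whose own posterior SD was at most 4.5% of the count for *H2-Q6* and 1.89% for *H2-Q7*, but 10.5% for *H2-Q5*, 13.3% for *H2-T10*, 18.2% for *H2-Q1* and 20.3% for *H2-K2*, so the last 4 are uncertain.

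*H2-T24* was at 25.7, 42.9 and 59.6 CPM in HFD-fed and at 6.26, 22.3 and 24.2 CPM in LFD-fed mice, and *H2-M3*, which presents N-formylated peptides of bacterial and mitochondrial origin, at 12.2, 15.0 and 21.4 CPM against 4.92, 11.9 and 10.35 CPM. *H2-T22*, a ligand of some gamma delta T cells, was at 131, 128 and 146 CPM against 114.5, 114.0 and 72.4 CPM. In all 3 genes every HFD-fed mouse was above every LFD-fed mouse, by a narrow margin for *H2-T24* and *H2-M3*. The log2 fold changes were 1.28 (SE 0.55) for *H2-T24*, 0.84 (SE 0.40) for *H2-M3* and 0.43 (SE 0.26) for *H2-T22*, with adjusted p of 0.488, 0.532 and 0.639 by edgeR. *H2-T23*, which encodes Qa-1, the ligand of the NKG2A receptor of NK cells, was at 84.9, 125 and 191 CPM against 41.05, 95.0 and 72.55 CPM, with overlap, and had a log2 fold change of 0.95 (SE 0.42; adjusted p of 0.499). *H2-Q4*, *H2-Q5*, *H2-K2*, *H2-T10*, *H2-M9* and *H2-Q1* had log2 fold changes of 0.61 to 1.18, all with overlap.

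In all, 5 members did not overlap between the diets in CPM, all higher in HFD-fed mice (*H2-M3*, *H2-T22*, *H2-T24*, *Psmb8* and *Psmb10*), and 0 were lower, against 6.72% of all tested genes higher and 9.23% lower. In TPM, 0 members were free of overlap, against 1.65% higher and 11.6% lower. With 2 mice against 3, where overlap is rarer for every gene, the count in CPM was 18 without HFD-fed mouse 1, against 13.3% of all genes, and 17 without LFD-fed mouse 2, against 9.96%. When mice with the same replicate number were set against each other, 16 members were higher in the HFD-fed mouse of all 3 pairs, against 21.1% of all tested genes.

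*H2-Q10* was the only tested class I arm gene with a negative estimate. It encodes a secreted class I molecule made mainly by the liver. It was at 49.6, 40.5 and 25.0 CPM in HFD-fed mice and at 283, 61.5 and 18.1 CPM in LFD-fed mice, so that LFD-fed mouse 1 stood far above the other 5 while LFD-fed mouse 3 was the lowest of all. The log2 fold change was -1.65 (SE 0.91, adjusted p of 0.603 by edgeR), and -0.04 without LFD-fed mouse 1.

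The level of the Qa-2 genes relative to the classical class I genes was higher in each HFD-fed mouse than in any LFD-fed mouse. The summed TPM of *H2-Q6* and *H2-Q7*, divided by that of *H2-K1* and *H2-D1* in the same mouse, was 0.0324, 0.0546 and 0.0576 in HFD-fed mice and 0.0117, 0.0287 and 0.0222 in LFD-fed mice. The mean difference was 1.26 on the log2 scale. This ratio was chosen after its values were seen and was not tested.

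The peptide supply genes of class I had log2 fold changes of 0.23 to 1.01 (median 0.77 over 8 genes with *B2m* and *Nlrc5*). The immunoproteasome subunits replace the 3 catalytic subunits of the constitutive proteasome in immune cells and under interferon. *Psmb8* (LMP7) was at 57.4, 73.7 and 121 CPM in HFD-fed and at 29.75, 54.0 and 41.6 CPM in LFD-fed mice, and *Psmb10* (MECL-1) at 33.7, 36.6 and 67.65 CPM against 22.7, 29.5 and 24.1 CPM. *Psmb9* (LMP2) was at 22.5, 29.3 and 48.6 CPM against 13.3, 24.0 and 15.8 CPM. *Psmb8* and *Psmb10* did not overlap between diets, whereas *Psmb9* in LFD-fed mouse 2 passed HFD-fed mouse 1. The log2 fold changes were 1.01 (SE 0.36) for *Psmb8*, 0.85 (SE 0.32) for *Psmb10* and 0.92 (SE 0.37) for *Psmb9*, with unadjusted p of 0.0270, 0.0321 and 0.0433 and adjusted p of 0.400, 0.418 and 0.462 by edgeR.

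The constitutive subunits they replace, *Psmb5*, *Psmb6* and *Psmb7*, had log2 fold changes of -0.08, 0.11 and -0.17, with 0 of 3 at an unadjusted p under 0.05. To set both forms against each other within a mouse, log2 ratios of TPM were taken. *Psmb8* over *Psmb5* was at -0.84, -0.30 and 0.45 in HFD-fed and at -2.34, -0.43 and -0.53 in LFD-fed mice, a mean difference of 0.87. In HFD-fed mouse 3 alone *Psmb8* exceeded *Psmb5*, at 1.37 times its level. The difference was 0.67 for *Psmb9* over *Psmb6* and 0.83 for *Psmb10* over *Psmb7*. The diets overlapped in all 3 ratios, and exact two-sided permutation tests gave p of 0.4, 0.5 and 0.5 (0.5 each after Benjamini-Hochberg adjustment over 3 ratios), where the smallest p that 3 against 3 mice allow is 0.1. Without LFD-fed mouse 1 the differences were 0.25, 0.15 and 0.32.

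**Figure D3:**
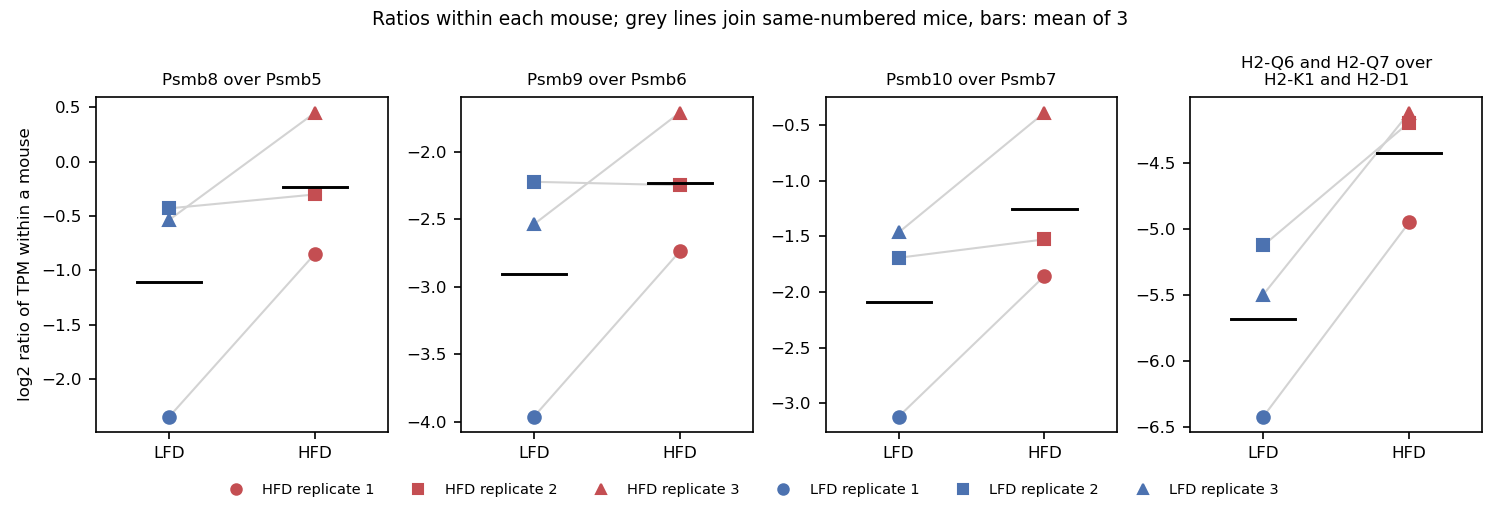
Log2 ratio of TPM within each mouse (vertical axis) for the 3 immunoproteasome subunits over the constitutive subunits they replace, and for *H2-Q6* with *H2-Q7* over *H2-K1* with *H2-D1*, in LFD-fed (blue) and HFD-fed (red) mice, with black bars at the mean of 3 mice and grey lines between same-numbered mice. The first 3 ratios overlap between diets, with LFD-fed mouse 1 lowest in each (-2.34 for *Psmb8* over *Psmb5*), and the fourth panel does not overlap.

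*Tap1*, one chain of the peptide transporter, was at 54.9, 80.7 and 137 CPM in HFD-fed and at 29.75, 59.2 and 60.8 CPM in LFD-fed mice, with a log2 fold change of 0.87 (SE 0.43, adjusted p of 0.545 by edgeR). Its partner chain *Tap2* had 38.4, 65.2 and 79.6 CPM against 51.3, 54.0 and 33.3 CPM and a log2 fold change of 0.40 (SE 0.33). Tapasin (*Tapbp*) had a log2 fold change of 0.29 (SE 0.27), and *Nlrc5*, the transactivator of class I genes, 0.68 (SE 0.37). *Nlrc5* was at 52.7, 68.05 and 121 CPM against 40.7, 66.5 and 44.0 CPM. All 4 genes overlapped between diets. The RefSeq starts of *Psmb9* and *Tap1* face away from each other with 225 bases between them, and their log2 fold changes were 0.92 and 0.87.

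In the class II arm, no member had an unadjusted p under 0.05 by edgeR or DESeq2, and none separated the diets. *H2-Aa* (ENSMUSG00000036594), the A alpha chain, was at 158, 158.5 and 155 TPM in HFD-fed and at 72.7, 293 and 194 TPM in LFD-fed mice. *H2-Ab1* (ENSMUSG00000073421), the A beta chain, was at 104, 122 and 115 TPM against 53.3, 220.0 and 161 TPM, and *H2-Eb1* (ENSMUSG00000060586), the E beta chain, at 84.2, 106 and 96.1 TPM against 50.5, 181 and 129.7 TPM. In TPM the HFD-fed mice lay close together for all 3 chains, with LFD-fed mouse 1 below and LFD-fed mice 2 and 3 above them. In CPM this was not so: *H2-Aa* was at 207, 127 and 121 in HFD-fed mice and at 83.9, 203 and 116 in LFD-fed mice, and LFD-fed mouse 3 was not above the HFD-fed mice for any chain but within or below their range. In the count fit the log2 fold changes were 0.17 (SE 0.40), 0.04 (SE 0.37) and 0.03 (SE 0.33), and on the log2(TPM + 1) scale they were -0.03, -0.13 and -0.16.

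*Cd74*, the invariant chain, was at 206, 236 and 269.9 TPM in HFD-fed and at 118.5, 463 and 332 TPM in LFD-fed mice, with the same pattern in TPM and a log2 fold change of -0.00 (SE 0.37). The summed TPM of the 3 chains divided by that of *Cd74* lay between 1.35 and 1.68 in the 6 mice, against levels of the summed chains that ran from 176.5 to 694 TPM. *Ciita*, the class II transactivator, was at 15.9, 13.1 and 15.4 CPM against 4.15, 19.8 and 14.45 CPM, and its log2 fold change was 0.20 (SE 0.52). The SD of log2 CPM for *Ciita* was 0.15 in HFD-fed mice and 1.18 in LFD-fed mice, and for *H2-DMa*, the alpha chain of the peptide editor H2-DM, it was 0.13 and 0.70. Every other tested class II arm member had the same direction with a smaller contrast, such as 0.43 and 0.64 for *H2-Aa*. Class I arm members went both ways, with 0.55 and 0.20 for *Psmb10* and 0.51 and 1.98 for *H2-Q10*. *Ciita* and *H2-DMa* were both lowest in LFD-fed mouse 1. These differences in spread were not tested.

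The genes of the peptide editors had both the highest and the lowest estimates of the class II arm. *H2-DMa* was at 17.85, 15.7 and 18.8 CPM in HFD-fed and at 6.51, 16.5 and 13.6 CPM in LFD-fed mice, and had a log2 fold change of 0.51 (SE 0.36, adjusted p of 0.712 by edgeR). The beta chain genes *H2-DMb1* and *H2-DMb2*, which are close copies, had log2 fold changes of 0.41 (SE 0.36) and -0.17 (SE 0.37). The posterior SD of the RSEM estimates reached 1.92% of the count for *H2-DMb1* and 8.33% for *H2-DMb2*. *H2-Ob*, the beta chain of the inhibitor H2-O, was at 1.71, 2.01 and 1.67 CPM against 1.02, 1.95 and 1.12 CPM, with 0.39 (SE 0.40). *H2-Ke6* was at 37.6, 22.03 and 14.5 CPM against 39.3, 19.99 and 8.20 CPM, with a log2 fold change of 0.14 (SE 0.60).

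Within the complex on chromosome 17, some of the class I supply genes lie inside the class II region (GRCm38, GENCODE M21 positions). *Tapbp* (33915899 to 33929292) does not, and stands before *H2-K1* (33996017 to 34000347). *Psmb9* (34181987 to 34187764), *Tap1* (34187553 to 34197225), *Psmb8* (34197721 to 34201454) and *Tap2* (34203527 to 34216321) stand between *H2-DMb1* (34153072 to 34160230) and *H2-Ob* (34238903 to 34254414). Their log2 fold changes of 0.92, 0.87, 1.01 and 0.40 were flanked by 0.41 and 0.39, and *H2-Ab1*, next after *H2-Ob*, was at 0.04. The members on other chromosomes did not share 1 value: *Psmb10* and *Nlrc5* on chromosome 8 had 0.85 and 0.68, *B2m* on chromosome 2 had 0.23, *Ciita* on chromosome 16 had 0.20 and *Cd74* on chromosome 18 had -0.00.

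**Figure D4:**
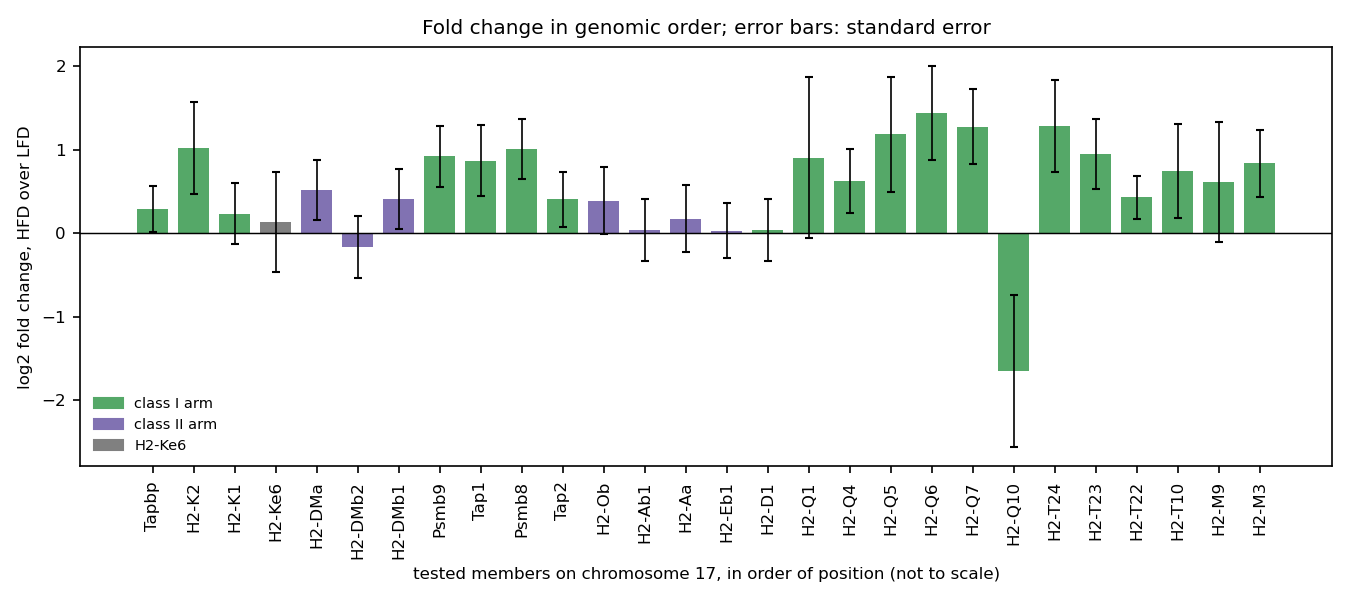
Log2 fold change of HFD-fed over LFD-fed mice (bars from 0, with 1 standard error) for the tested members on chromosome 17 in order of position, not to scale, coloured by arm. *Psmb9*, *Tap1* and *Psmb8*, at 0.87 to 1.01, stand among class II genes at -0.17 to 0.51.

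Other genes of the same pathways were followed as fixed lists. Of 8 further class I genes (chaperones, the trimming enzyme *Erap1* and the proteasome activators *Psme1* and *Psme2*), 8 had a positive log2 fold change with a median of 0.30, and 0 had an unadjusted p under 0.05 in either direction. *Psme1* was at 0.48, *Psme2* at 0.37 and *Erap1* at 0.33. Only *Hspa5* (0.64) and *Tapbpl* (0.26), both chaperones of the endoplasmic reticulum or its loading step, had no overlap between diets in CPM. Both margins were narrow. The lowest HFD-fed and highest LFD-fed mice were at 546.6 and 542.4 CPM for *Hspa5* and at 30.2 and 30.19 CPM for *Tapbpl*. In TPM both genes overlapped. Of 8 class II pathway genes, 5 were positive, with a median of 0.54. The endosomal protease cathepsin L (*Ctsl*) was at 269, 391 and 516.5 TPM in HFD-fed and at 140.2, 291 and 399.6 TPM in LFD-fed mice, and was the 1 gene with an unadjusted p under 0.05 (0.0370; log2 fold change 0.80, SE 0.31, adjusted p of 0.439 by edgeR). When mice were blocked by replicate number, 4 class II pathway genes had an unadjusted p under 0.05, all higher: *Ctss*, *Ctsl*, *Lgmn* (legumain, a protease) and *Ifi30* (a thiol reductase), with adjusted p of 0.169 to 0.224. DESeq2 gave 2 higher, *Ctss* and *Ctsl*, the latter with an adjusted p of 0.0653. Cathepsin S (*Ctss*), which trims the invariant chain, had a log2 fold change of 1.47 (SE 0.73, adjusted p of 0.547) and, with *Ctsl*, no overlap in CPM. *Rfxap*, a subunit of the factor that binds class II promoters, was lower in every HFD-fed mouse in CPM (log2 fold change -0.53, SE 0.24, adjusted p of 0.509).

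Of 9 genes of interferon gamma signalling, which induces both arms, 8 were tested, with a median log2 fold change of 0.26 and 0 at an unadjusted p under 0.05. *Irf1* was at 20.5, 54.5 and 91.0 TPM in HFD-fed and at 20.85, 47.2 and 40.4 TPM in LFD-fed mice, with a log2 fold change of 0.85 (SE 0.36, adjusted p of 0.480 by edgeR). The diets overlapped in CPM for *Irf1*. *Ifng* itself had at most 0.39 TPM and was not tested.

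Markers of cells that carry these molecules moved unevenly with diet. The T and NK cell list had the highest median, 2.28 over 11 tested genes. Of these, 8 had an unadjusted p under 0.05 by edgeR and 9 had no overlap in CPM, all higher. The shares of all tested genes that were higher were 3.86% and 6.72%. The summed level of the list was 21.1 to 42.1 CPM in HFD-fed mice and 2.87 to 11.4 CPM in LFD-fed mice. *Gzmb*, granzyme B of cytotoxic cells, was at 1.32, 6.55 and 10.98 TPM against 0.08, 0.75 and 0.44 TPM (log2 fold change 4.08, SE 0.81, adjusted p of 0.174 by edgeR, 0.0403 with the block and 1.446e-05 by DESeq2). DESeq2 called 6 of the 11 genes, *Gzmb*, *Nkg7*, *Ncr1*, *Prf1*, *Lck* and *Klrb1c*, against 2.06% of all genes it could adjust, and edgeR called none. In LFD-fed mouse 1, *Gzmb* was at 0.128 CPM and *Prf1* and *Cd3g* were at 0.064 CPM. Such levels are near the floor, so the fold changes of these genes rest on few reads. Of the T cell genes, *Cd3g* (log2 fold change 2.28), *Lck* (2.00), *Cd2* (1.20) and *Cd3d* (0.96) had no overlap in CPM, *Cd8a* and *Cd4* overlapped between diets, and *Cd3e* was below the filter, at no more than 0.76 TPM. The macrophage list had a median of 0.28 over 12 genes, with 3 at an unadjusted p under 0.05 (*Cd68* at 1.72, *Fcgr1* at 2.06 and *Adgre1* at 1.36), and a summed level of 2780 to 4434 CPM in HFD-fed mice and 1183 to 3936 CPM in LFD-fed mice. The class II chains divided by the macrophage list were 0.0896 to 0.174 in HFD-fed mice and 0.106 to 0.275 in LFD-fed mice, a difference of -0.53 on the log2 scale with overlap, and within same-numbered pairs the HFD-fed mouse was lower in all 3 (differences of -0.66, -0.70 and -0.24).

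Among 8 dendritic cell genes, 7 were positive with a median of 0.64, while *Cd209a* was lower in every HFD-fed mouse (log2 fold change -1.53, SE 0.49, adjusted p of 0.354 by edgeR), and the summed level was 54.6 to 63.5 CPM against 32.7 to 60.6 CPM. B cell genes were low, at 8.79 to 11.5 CPM summed in HFD-fed mice and 2.11 to 9.23 CPM in LFD-fed mice. Endothelial genes, of a cell type rich in class I, had a median of 0.84 over 6 genes and summed to 363 to 868.3 CPM against 359 to 419 CPM. The part of these cell types in the values of the members was not tested.

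**Figure D5:**
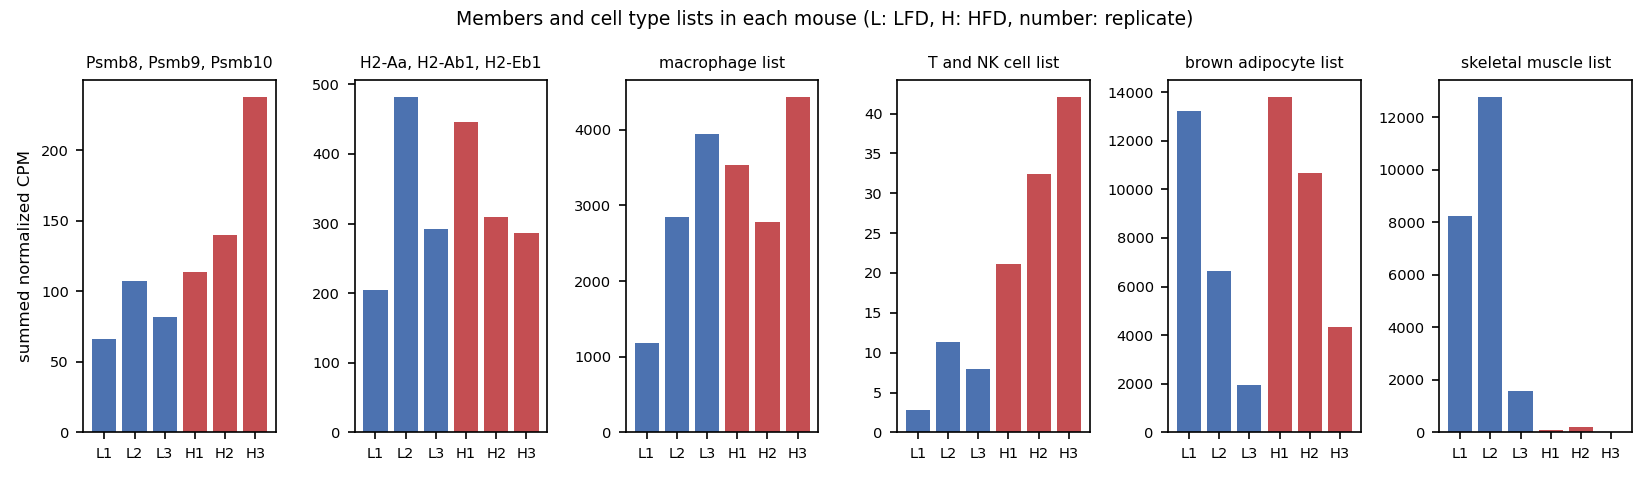
Summed CPM (TMM-scaled, bars from 0) in each of the 3 LFD-fed mice (L1 to L3, blue) and 3 HFD-fed mice (H1 to H3, red) for the immunoproteasome subunits, the class II chains and 4 marker lists, each panel with its own axis. The immunoproteasome sum is 114 to 238 in HFD-fed mice and 65.8 to 107.5 in LFD-fed mice, the class II chains overlap, and the skeletal muscle list is 4.54 to 220.4 against 1561 to 12770.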

How the data were processed

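BAT RNA of 3 HFD-fed and 3 LFD-fed mice had been depleted of ribosomal RNA and sequenced as single reads of 75 bases. Per the study's methods and the submitters' processing notes, the authors trimmed reads with Trimmomatic 0.36, estimated expression with RSEM 1.3.0 and compared diets with DESeq2 1.10.1. The deposited expected counts are RSEM's estimated counts per gene, in which reads shared by similar genes are split, and the deposited TPM are levels per transcript length, scaled to the same total in every library. The deposited posterior standard deviation of the count was used as a measure of that split. Strand-specific counting is not given in the sources used here, so genes that overlap on opposite strands, such as *Psmb9* and *Tap1*, may share reads.

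Expected counts were rounded. The diets were compared with edgeR 4.0.16 (R 4.3.3): TMM factors, its default filter on low counts and the quasi-likelihood test, with Benjamini-Hochberg adjustment over all 17668 tested genes. CPM values are scaled by TMM. As in the study, genes were called at an adjusted p below 0.01 where the log2 fold change also exceeded 1.5 in size. DESeq2 1.42.0, limma 3.58.1 on log2(TPM + 1) and the other alternatives are in the closing section. The model scripts were tested on simulated data. Ratios used a pseudocount of 0.01 TPM. Any tested member could be named, and list genes without overlap or with the highest levels. The members and lists were chosen with earlier results of these data known. Totals were 17156991 to 21603487 counts per mouse. The floor for a count of 0 covers counting error only, while the SE of a log2 fold change also includes the spread between mice. Same-numbered HFD and LFD mice deviated together from their diet means (r of 0.498, 0.229 and 0.522), so the fit with replicate number as a block is given where it changed a count by over 1.5 times. The labels do not say what the number stands for. Promoters were matched by symbol in RefSeq's table for 23 of the 33 tested members, and the sequence of *Cd74* is not shown.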

Additional observations from a re-analysis of the deposited data

How the results depend on the processing

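The number of members called stayed at 0 in every alternative run, including an adjusted p under 0.05 with no fold threshold in the main fit. In the main fit and with the replicate block this says nothing particular about the members, because no gene at all was called. The smallest adjusted p of any gene by edgeR was 0.171 in the main fit and 0.0102 with the block. DESeq2 called 2.06% of the genes it could adjust and no member. Counts over all genes in the other alternatives are not given here. The median log2 fold changes of both arms moved by less than the spread between mice. Members at an unadjusted p under 0.05 and higher in HFD-fed mice numbered 5, and 0 without normalization factors, 0 with limma on log2(TPM + 1), 10 with the replicate block and 0 to 8 with 1 mouse left out; those lower numbered 0 to 1 with 1 mouse left out. Members higher with no overlap numbered 5, and 0 without normalization factors, 0 on the TPM scale and 5 to 18 with 1 mouse left out, while 16 were higher in all 3 same-numbered pairs; those lower numbered 0 to 1 with 1 mouse left out. With the block no gene was called, member or not, so it could not change a call of a member.

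Among single members, 11 of 261 estimates under alternatives and 18 of 198 with 1 mouse left out changed sign, most of them near 0. *Cd74* was at 0.020 with DESeq2, 0.013 with RLE size factors, 0.0020 without a filter and 0.059 with the replicate block. *H2-Eb1* and *H2-Ab1* were at -0.023 and -0.028 without normalization factors. On the TPM scale *H2-Aa* was at -0.033, *H2-Eb1* at -0.16, *H2-Ab1* at -0.13, *H2-K1* at -0.0059 and *H2-D1* at -0.20. With 1 mouse left out the ranges were -0.21 to 0.66 for *Ciita*, -0.24 to 0.36 for *Cd74*, -0.12 to 0.59 for *H2-Aa*, -0.42 to 0.036 for *H2-DMb2*, -0.18 to 0.37 for *H2-Eb1*, -0.0019 to 0.39 for *B2m*, -0.15 to 0.13 for *H2-D1*, -0.24 to 0.44 for *H2-Ab1* and -0.30 to 0.82 for *H2-Ke6*. The causes of these changes were not tested. The mean HFD minus LFD differences of the 3 proteasome log2 ratios stayed positive in the alternatives run, although *Psmb9* over *Psmb6* differed by -0.025 in 1 same-numbered pair, and over the pairs their exact sign-flip p (replicate block) was 0.25 to 0.5, where 0.25 is the smallest possible.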
